A study of Mus musculus with 63 samples.

Results

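The homeostatic microglia genes P2ry12, P2ry13, Tmem119, Cx3cr1, Gpr34, Siglech, Csf1r, Fcrls, Olfml3 and Selplg were followed across 4 sorted cell populations of the mouse cortex after a burn or a sham procedure. The 10 genes were chosen by name, as genes commonly used to mark resident microglia, and all 10 were found by Ensembl ID among the 56980 genes of the count tables. All mice were female C57BL/6J, 12 weeks old on arrival, and all had been injected on both sides of the primary motor cortex with 2 adeno-associated viruses, CamKII-eGFP and mDlx-mRuby2. One group then received a thermal burn of 7 to 8% of the total body surface and the sham group did not, and RNA was taken 5 weeks later.

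Cells were sorted from single mice. CD11b-positive cells (labelled microglia) and ACSA2-positive cells (labelled astrocytes) were stained with antibodies and came from cortex behind the motor cortex. CaMKII-positive cells (labelled excitatory neurons) carried eGFP alone, and double-positive cells (labelled inhibitory neurons) carried both eGFP and mRuby2, and both came from the injected motor cortex. The neuronal labels rest on viral promoters and fluorescence, and the CD11b gate takes any myeloid cell. The libraries of mouse 3 and the double-positive library of mouse 8 were left out. This left 8 burn and 7 sham CD11b-positive, 9 and 7 double-positive, 4 and 6 CaMKII-positive, and 9 and 8 ACSA2-positive libraries. The 58 libraries kept held 13346143 to 134703744 counts, so a count of 3 corresponded to 0.0223 to 0.225 CPM (counts scaled to a library total of 1000000), and the double-positive library of mouse 8 held 331215 counts. The libraries fell into 3 batches.

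The labelled cell types were read against marker lists. The 9 neuron markers summed to 93.6 CPM in CaMKII-positive and 18.9 CPM in double-positive libraries, below the 10 microglia genes in both, and no neuron marker was at 0 in every library of either population. The 9 astrocyte markers summed to 52450 CPM in ACSA2-positive and 25838 CPM in CaMKII-positive libraries, and the 6 endothelial markers summed to 5463 CPM in the latter. Of the 4 populations the CaMKII-positive one had the highest mean sum of neuron markers, against 52.4 CPM in ACSA2-positive and 8.96 CPM in CD11b-positive libraries. At these low levels the RNA goes against the neuronal label of the double-positive libraries and does not bear out that of the CaMKII-positive ones, and the populations are called below by their sort.

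Microglia are the resident macrophages of the brain parenchyma. In the undisturbed brain they carry a set of surface receptors and secreted proteins that separates them from blood monocytes and from the macrophages of the brain's borders, and many of these genes are held on by TGF-beta signalling and by the lineage factors PU.1, IRF8, SALL1 and MEF2. When microglia respond to injury or degeneration several of these genes are known to be turned down. P2ry12 and P2ry13 encode purine receptors that sense ADP, Cx3cr1 the receptor of the chemokine fractalkine, Gpr34 a receptor for lysophosphatidylserine, and Csf1r the receptor tyrosine kinase through which CSF1 and IL-34 keep microglia alive. Siglech encodes a sialic acid binding lectin that signals through the adaptor Tyrobp, Selplg the ligand of the selectins, Fcrls an Fc receptor-like scavenger receptor, Tmem119 a transmembrane protein and Olfml3 a secreted matrix protein.

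P2ry12, P2ry13, Fcrls and Olfml3 lie on chromosome 3, Tmem119 and Selplg on chromosome 5, Siglech on chromosome 7, Cx3cr1 on chromosome 9 and Gpr34 on the X chromosome. The chromosomes were taken from the GRCm38 annotation, while the counts were made on GRCm39. The exons of Csf1r share 873 bases, 15.1% of their length, with exons of Hmgxb3 on the other strand, those of Cx3cr1 share 78 bases with the antisense gene Gm33858, and those of P2ry12 share 9 bases with Med12l. The library kit keeps strand, but the strand setting of the counting is not given in the sources used here. Only exons were compared, and overlap with introns of other genes was not searched.

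Promoters of 6 of the 10 genes were found in the RefSeq table for GRCm38.p6, and the 250 bases before the start of each were searched on both strands. The hexamer GAGGAA, the core of PU.1 sites, lay in 2 of 6 (P2ry13 and Fcrls), against 23.3% of all 32851 promoters. GGAAGT, an ETS site, lay in 3 of 6 (P2ry12, Fcrls and Siglech), against 19.7%. The IRF element lay in 0 of 6, against 2.98%. The MEF2 element lay in Cx3cr1 alone, against 3.20%. CACGTG, the E-box, lay in 2 of 6 (P2ry12 and Siglech), against 6.02%. The GAGGAA and GGAAGT motifs can overlap each other, since both hold GGAA. The 4 promoters that hold the PU.1 core, the ETS site or the E-box are printed to show where these letters lie. They are given in the direction of the gene, with every match to these 3 hexamers in capitals, a match on the other strand appearing as its reverse complement.
P2ry12, chr3:59262986-59263235, minus strand: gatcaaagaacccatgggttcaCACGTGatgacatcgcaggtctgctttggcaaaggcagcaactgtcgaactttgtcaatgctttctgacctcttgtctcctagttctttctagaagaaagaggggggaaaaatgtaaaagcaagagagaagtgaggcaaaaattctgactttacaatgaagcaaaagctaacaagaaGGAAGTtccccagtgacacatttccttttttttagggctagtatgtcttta
P2ry13, chr3:59210883-59211132, minus strand: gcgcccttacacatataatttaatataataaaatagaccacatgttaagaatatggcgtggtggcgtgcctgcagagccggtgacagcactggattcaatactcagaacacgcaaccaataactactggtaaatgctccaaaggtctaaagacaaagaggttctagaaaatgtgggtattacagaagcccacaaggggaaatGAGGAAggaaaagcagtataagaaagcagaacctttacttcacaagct
Fcrls, chr3:87263525-87263774, minus strand: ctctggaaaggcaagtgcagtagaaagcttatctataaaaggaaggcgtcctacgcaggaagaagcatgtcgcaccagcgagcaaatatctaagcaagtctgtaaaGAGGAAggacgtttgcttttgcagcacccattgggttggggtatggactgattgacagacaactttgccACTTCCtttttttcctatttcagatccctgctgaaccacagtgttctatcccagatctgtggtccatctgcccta
Siglech, chr7:55767934-55768183, plus strand: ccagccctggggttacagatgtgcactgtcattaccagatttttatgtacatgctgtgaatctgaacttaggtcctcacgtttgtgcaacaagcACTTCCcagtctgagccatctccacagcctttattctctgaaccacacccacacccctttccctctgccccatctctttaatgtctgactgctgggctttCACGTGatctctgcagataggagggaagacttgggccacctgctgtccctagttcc
The GAGGAA of P2ry13 began 48 bases before the start and that of Fcrls 144 bases before it. The GGAAGT matches lay 51 (P2ry12), 75 (Fcrls) and 156 (Siglech) bases before the start, and the CACGTG matches 228 (P2ry12) and 56 (Siglech) bases before it. These are matches of letters and not shown binding sites.

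The 10 genes were most abundant in CD11b-positive libraries, nearly as abundant in double-positive libraries, far lower in CaMKII-positive libraries and lowest in ACSA2-positive libraries. Their summed level was 24504 CPM ± 3237 (SD, n = 15) in CD11b-positive, 19889 CPM ± 3971 (n = 16) in double-positive, 844 CPM ± 407 (n = 10) in CaMKII-positive and 42.9 CPM ± 30.0 (n = 17) in ACSA2-positive libraries. These are levels in bulk RNA, in which fewer cells of a type and less RNA per cell cannot be told apart.

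Among the receptors, Csf1r was the highest in every population but ACSA2 on the CPM scale. It ranged over the CD11b-positive libraries from 5358 to 9727 CPM with a median of 7536, and over the double-positive libraries from 4299 to 8905 CPM with a median of 5225. In CaMKII-positive libraries it ranged from 110 to 586 CPM with a median of 273, and in ACSA2-positive libraries from 0.197 to 35.5 CPM with a median of 8.05. The first 2 ranges overlapped, and neither reached the CaMKII-positive range.

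Cx3cr1 came next. It ranged from 3573 to 6016 CPM (median 4733) in CD11b-positive, 2649 to 5634 CPM (median 3453) in double-positive, 47.4 to 311 CPM (median 142) in CaMKII-positive and 0.225 to 25.2 CPM (median 6.28) in ACSA2-positive libraries. The lowest CaMKII-positive library lay above the highest ACSA2-positive library.

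P2ry12 ranged from 2111 to 3347 CPM (median 2572) in CD11b-positive and 1770 to 2863 CPM (median 2171) in double-positive libraries. It ranged from 28.9 to 122 CPM (median 74.4) in CaMKII-positive and 4.56 to 17.0 CPM (median 10.1) in ACSA2-positive libraries, and its lowest value there was above that of each of the other 9 genes. The related receptor P2ry13 was lower throughout, at 1100 CPM ± 168 (SD, n = 15) in CD11b-positive, 906 CPM ± 214 (n = 16) in double-positive, 32.6 CPM ± 17.0 (n = 10) in CaMKII-positive and 1.44 CPM ± 1.31 (n = 17) in ACSA2-positive libraries, where 1 library had no count. Gpr34 stood at 1060 ± 124, 976 ± 191, 29.8 ± 15.0 and 1.92 CPM ± 2.28 in the same order.

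The lectin Siglech varied least of the 10 in CD11b-positive and double-positive libraries. It ranged from 841 to 1139 CPM (median 893) in CD11b-positive and 688 to 1124 CPM (median 876) in double-positive libraries, and its coefficient of variation over CD11b-positive libraries was 9.14%, against 21.1% for Tmem119, the most variable of the 10. The mean of Siglech was 35.5 CPM ± 16.0 (SD, n = 10) in CaMKII-positive and 1.81 CPM ± 1.57 (n = 17) in ACSA2-positive libraries, with no count in 2 of the 17. Selplg stood at 1986 ± 311, 1568 ± 276, 70.9 ± 36.5 and 3.45 CPM ± 3.27 in CD11b-positive, double-positive, CaMKII-positive and ACSA2-positive libraries. Fcrls stood at 1744 ± 362, 1462 ± 367, 41.8 ± 16.7 and 2.32 CPM ± 1.95 in that order. Tmem119 stood at 1595 ± 337, 1402 ± 396, 64.6 ± 31.7 and 1.52 CPM ± 1.04, and Olfml3 at 1178 ± 185, 984 ± 153, 54.3 ± 27.7 and 3.73 CPM ± 2.72. Every one of the 10 followed the same order of populations.

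**Figure D1:**
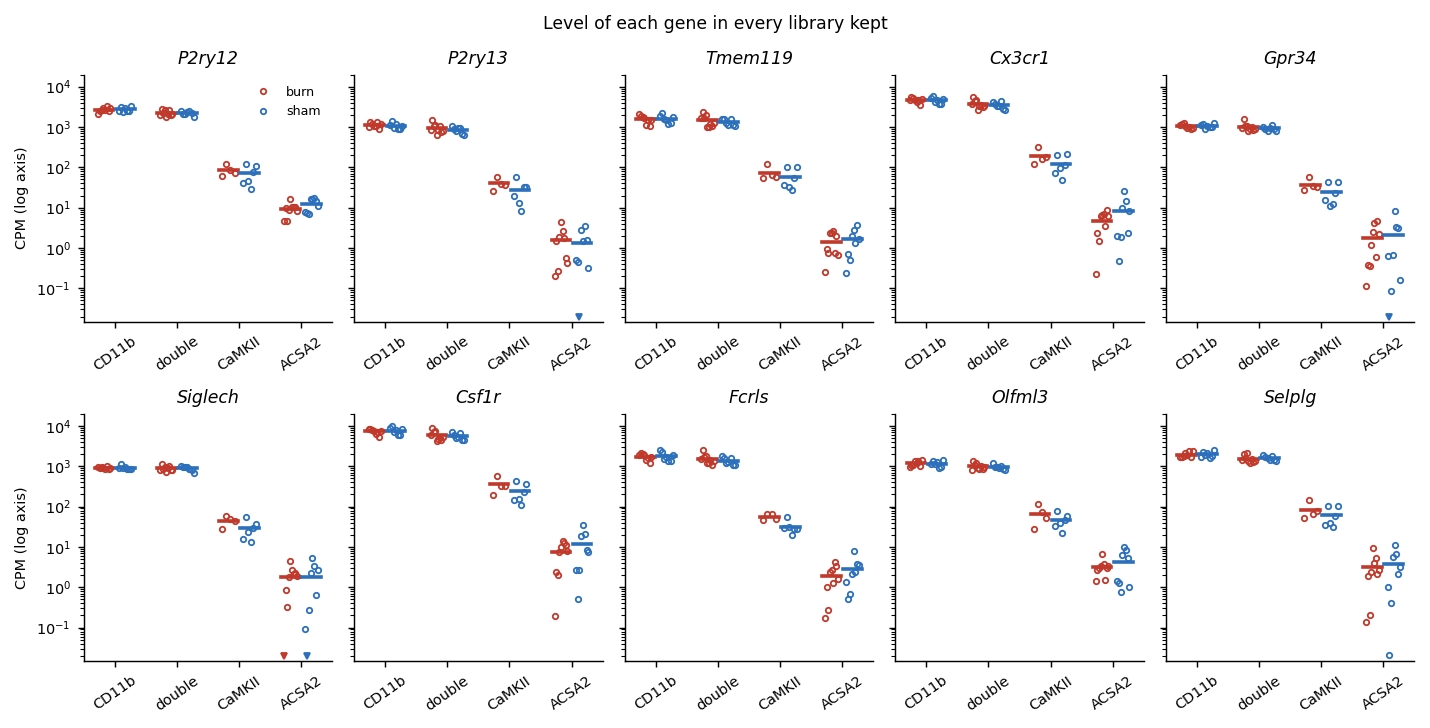
Level of each of the 10 genes in every library kept, in CPM on a log axis, by sorted population and treatment. Circles are libraries, bars are group means and triangles at the foot mark libraries with no count; CD11b-positive and double-positive libraries share a band for each gene, and ACSA2-positive libraries lie below CaMKII-positive ones.

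Between genes, levels were compared per kilobase of exon. On that scale Csf1r stood at 1301, P2ry12 at 1070 and Cx3cr1 at 1041 CPM per kilobase in CD11b-positive libraries, and these 3 also led in double-positive libraries, at 1001, 881 and 816. Olfml3 was the lowest of the 10 in both, at 191 and 160 CPM per kilobase. Among 52073 genes with a known exon length, the 10 ranked between 10 (Csf1r) and 141 (Olfml3) in CD11b-positive libraries and between 18 (Csf1r) and 186 (Olfml3) in double-positive libraries. In CaMKII-positive libraries they ranked between 604 (Csf1r) and 5708 (Olfml3), and in ACSA2-positive libraries between 8609 (P2ry12) and 16419 (Siglech).

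The proportions among the 10 genes were much alike in 3 of the 4 populations. Csf1r made up 30.5%, 28.9% and 33.5% of the summed CPM in CD11b-positive, double-positive and CaMKII-positive libraries, and P2ry12 made up 11.2%, 11.4% and 9.26%. In ACSA2-positive libraries the share of P2ry12 was 32.6% ± 15.1 (SD, n = 17), above the 18.9% of Csf1r, and it reached 65.2% in 1 library. In that population the smallest shares rest on few counts.

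**Figure D2:**
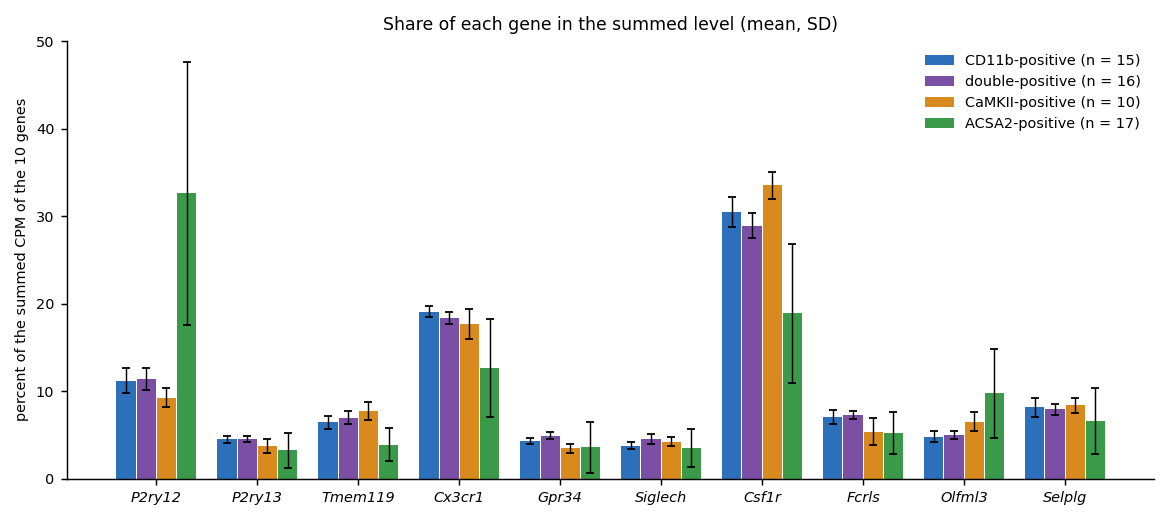
Mean share of each gene in the summed CPM of the 10 genes, in percent, by population, with bars showing the SD over libraries. The share of P2ry12 is 32.6% in ACSA2-positive libraries and between 9.26% and 11.4% in the other 3 populations.

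The double-positive and CD11b-positive libraries were compared in 1 fit with batch and treatment as terms (edgeR quasi-likelihood test, Benjamini-Hochberg adjusted over 28752 genes, called at an adjusted p of at most 0.05). They also differ in cortical region and in antibody staining, and these cannot be told apart from the sorted population. Of the 10 genes, 8 were called higher in CD11b-positive libraries, where 8.45% of all genes tested were called higher. The median log2FC of the 10 was 0.35 and that of all genes was -0.09. The CPM ranges of the populations overlapped for all 10 genes, and 0.0383% of all genes had ranges that did not overlap with CD11b-positive higher.

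The largest difference was that of Csf1r, with a log2FC of 0.46 ± 0.07 (SE, 15 against 16 libraries; adjusted p = 1.4e-05 by edgeR). Selplg and Cx3cr1 followed at 0.44 ± 0.08 and 0.44 ± 0.07, then P2ry13 at 0.37 ± 0.08, P2ry12 at 0.36 ± 0.07, Olfml3 at 0.35 ± 0.08, Fcrls at 0.33 ± 0.07 and Tmem119 at 0.28 ± 0.08 (adjusted p = 0.011 by edgeR for Tmem119, the highest of the 8). The fold of Csf1r was 1.38. Gpr34 differed by 0.17 ± 0.06 (adjusted p = 0.060 by edgeR, 95% interval 0.04 to 0.30), and Siglech by 0.11 ± 0.05 (adjusted p = 0.13 by edgeR, 95% interval 0.01 to 0.22), and neither was called. With the mouse as a block, 9 of 10 were called, Gpr34 among them (adjusted p = 0.039 by edgeR).

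The 14 mice with both libraries gave the same comparison within the animal. The summed level of the 10 genes was higher in the CD11b-positive library in 12 of 14 mice, with a median ratio of 1.26. In mouse 7, a burn mouse of batch 1, the ratio was 0.889, and in mouse 17, a sham mouse of batch 3, it was 0.891, and 0 of the 10 genes were higher in the CD11b-positive library of either mouse. The ratio was highest in mouse 19, at 1.78. By gene, P2ry12, P2ry13, Tmem119, Cx3cr1, Csf1r, Fcrls and Selplg were higher in 12 of 14 mice, Gpr34 and Olfml3 in 11 and Siglech in 9. The 10 mice of batch 3 alone, taken as a fit of their own, gave 8 of 10 genes called. Leaving out 1 mouse in turn gave 8 to 10. Sham mice alone gave 5, and 0 were called when an absolute log2FC of at least 1 was also asked for. With every deposited library in the fit 0 of 10 were called, and with the mouse 3 libraries added but the double-positive library of mouse 8 still left out 8 of 10 were called, so the loss came with that 1 library of 331215 counts, in which the 10 genes summed to 21.1 CPM.

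**Figure D3:**
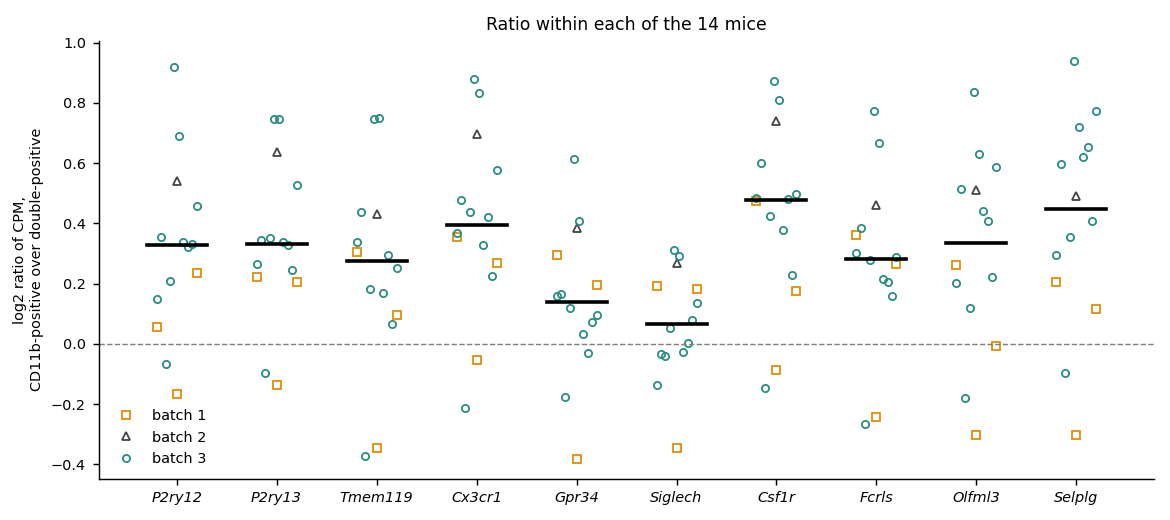
Log2 ratio of CPM between the CD11b-positive and the double-positive library of the same mouse, for each gene and each of the 14 mice with both libraries. Symbols mark the batch and bars the median over mice; medians run from 0.07 for Siglech to 0.48 for Csf1r, and the lowest points of most genes are those of mice 7 and 17.

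Other gene groups were read in the same fit. Itgam, which encodes CD11b and so stands for the gate, was higher in CD11b-positive libraries by 0.46 ± 0.06 (log2FC, SE; adjusted p = 1.9e-06 by edgeR). Of 24 other homeostatic microglia genes 11 were called higher and 0 lower, led by Sparc (0.52 ± 0.07) and the fructose transporter Slc2a5 (0.42 ± 0.08), and their median log2FC was 0.17. Of the 15 TGF-beta and lineage factors tested, 7 were called higher, among them the receptor Tgfbr1 (0.31 ± 0.05), and 1 lower, the integrin Itgb8 (-2.43 ± 0.36), which astrocytes also express. Of 12 disease-associated microglia genes, 2 were called higher, Lgals3 (1.79 ± 0.46) and Ccl6 (0.52 ± 0.08), and 0 of 15 early response genes known to rise on dissociation were called by edgeR, with 0 of them at an unadjusted p under 0.05.

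Markers of other cells moved between the 2 populations as well. All 8 border macrophage markers were called higher in CD11b-positive libraries, with Clec12a (2.02 ± 0.37) and the scavenger receptor Cd163 (1.84 ± 0.23) furthest, and their summed level was 349 against 138 CPM. All 7 monocyte and neutrophil markers were called higher, with Retnlg (6.59 ± 0.72) and S100a9 (6.30 ± 0.67) furthest, at a summed 125 against 15.1 CPM. All 9 astrocyte markers were called lower, with Gjb6 (-3.76 ± 0.47) and Aqp4 (-3.61 ± 0.40) furthest, at 270 against 1099 CPM, and 3 of 9 neuron, 3 of 5 oligodendrocyte precursor (median log2FC -1.94) and 3 of 5 mural cell markers (median -1.64) were called lower. Of 6 endothelial markers 1 was called higher and 1 lower, and 1 of 6 oligodendrocyte markers was called lower. The part of these cells in the differences of the 10 genes was not tested.

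Ligands, enzymes and an adaptor known to act with several of the 10 gene products were measured in the same cells. Cx3cl1, the ligand of Cx3cr1, was lower in CD11b-positive libraries, with a log2FC of -1.22 ± 0.27 (SE; adjusted p = 0.0014 by edgeR), at 1.32 against 3.05 CPM, and it was highest in CaMKII-positive libraries at 63.8 CPM ± 29.2 (SD, n = 10). Entpd1, the ectonucleotidase that breaks down ATP and ADP, was higher by 0.17 ± 0.05 (adjusted p = 0.022 by edgeR), and Abhd12, which degrades lysophosphatidylserine, by 0.16 ± 0.05 (adjusted p = 0.024 by edgeR). The adaptor Tyrobp, at 339 against 333 CPM, differed by 0.08 ± 0.05, Abhd16a, which makes lysophosphatidylserine, by 0.07 ± 0.05, and Csf1, at 104 against 119 CPM, by -0.20 ± 0.16, and none of these was called. Il34, Nt5e and Selp stood below 1 CPM in both populations and were not called, and Sele did not reach 10 counts over these libraries. Il34, the other ligand of Csf1r, stood at 7.88 CPM ± 3.01 (SD, n = 10) in CaMKII-positive and 3.27 CPM ± 2.17 (n = 17) in ACSA2-positive libraries.

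All 10 genes were far higher in double-positive than in CaMKII-positive libraries, although both carried the eGFP of the same virus and came from the same tissue. The log2FC ran from 4.40 ± 0.21 (SE, 16 against 10 libraries) for Olfml3 to 5.27 ± 0.19 for Fcrls, which is 21.0-fold to 38.5-fold, and 10 of 10 were called higher, against 28.4% of all genes tested. The ranges did not overlap for 10 of 10 genes, against 8.09% of all genes. All 24 other homeostatic microglia genes were called higher too, as were 6 of 8 border macrophage markers. Called lower were 4 of 7 monocyte and neutrophil, 9 of 9 astrocyte, 6 of 6 oligodendrocyte, 5 of 5 oligodendrocyte precursor, 6 of 6 endothelial, 5 of 5 mural and 7 of 9 neuron markers, and 9675 of all 30693 genes. Of the early response genes, known to rise when tissue is dissociated, 13 of 15 were called higher by edgeR, with a median log2FC of 2.26, and their summed level was 23421 against 6019 CPM. Their part in the differences was not tested. Within the 9 mice with both libraries, the summed level was 9.33-fold to 69.7-fold higher in the double-positive library.

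In CaMKII-positive libraries the 10 genes were in turn higher than in ACSA2-positive libraries. The log2FC ran from 2.55 ± 0.20 (SE, 10 against 17 libraries) for P2ry12 to 5.25 ± 0.33 for Tmem119, and 10 of 10 were called higher, against 17.0% of all genes tested. The ranges did not overlap for 10 of 10 genes, against 4.92% of all genes. The interval of P2ry12, 2.13 to 2.97, lay below that of every other gene of the 10 except Gpr34 (2.76 to 4.91) and Olfml3 (2.88 to 4.13), whose intervals overlapped with it. The differences between genes were not tested. Other lists moved with the 10: 15 of 15 early response genes, 7 of 7 monocyte and neutrophil markers, 7 of 8 border macrophage markers, 6 of 6 endothelial and 5 of 6 oligodendrocyte markers were called higher, 2 of 9 neuron markers were also called higher, and 9 of 9 astrocyte markers lower, by edgeR, and their part in the differences was not tested. Batches differed in all 4 populations. The summed level in ACSA2-positive libraries was 15.6 CPM ± 7.03 (SD, n = 4) in batch 1, 21.3 CPM ± 14.7 (n = 3) in batch 2 and 60.3 CPM ± 26.7 (n = 10) in batch 3. For CaMKII-positive libraries it was 542 CPM ± 138 (n = 2) in batch 1 and 920 CPM ± 422 (n = 8) in batch 3. Double-positive libraries stood at 24190 ± 5108 (n = 3), 22901 ± 2483 (n = 3) and 17695 CPM ± 2140 (n = 10) in batches 1, 2 and 3. CD11b-positive libraries stood at 26259 ± 962 (n = 4), 30652.5 (n = 1) and 23187 CPM ± 2915 (n = 10) in that order.

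Burn and sham libraries were compared within each population, with batch as a term, to ask whether the homeostatic genes had changed 5 weeks after injury (a gene was called if its log2FC was 1 or more in either direction and its adjusted p did not exceed 0.05). No member was called in any of the 4 populations by edgeR or by DESeq2. edgeR called 0.0% of all genes in each population, while DESeq2 called 80 genes in CD11b-positive, 2 in double-positive, 3 in CaMKII-positive and 27 in ACSA2-positive libraries. At an unadjusted p under 0.05 by edgeR there were 2036, 1872, 1096 and 2984 genes in that order, and 0, 0, 2 and 0 of the 10.

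In CD11b-positive libraries the levels of the 2 groups lay on top of each other. P2ry12 ranged from 2111 to 3290 CPM (median 2622) in 8 burn libraries and from 2393 to 3347 CPM (median 2558) in 7 sham libraries. Tmem119 ranged from 1084 to 2062 CPM (median 1579) after burn and from 1202 to 2172 CPM (median 1552) after sham. Csf1r ranged from 5358 to 8535 CPM (median 7456) after burn and from 5920 to 9727 CPM (median 7915) after sham. The log2FC of the 10 ran from -0.06 ± 0.10 (SE) for Csf1r to 0.11 ± 0.10 for P2ry13, with 6 above 0 and a median of 0.04. Taken gene by gene, the 95% intervals lay between 0.814-fold and 1.27-fold, so changes beyond these bounds lie outside the interval of every one of the 10. Batch 2 held 1 sham library and no burn library, so with batch as a term that library does not inform the burn effect. Batch 1 held 3 burn libraries and 1 sham library. The 8 border macrophage markers summed to 403 CPM in burn and 286 CPM in sham libraries, with 8 of 8 log2FC above 0 (median 0.49). Endothelial markers were above 0 for 1 of 6 (median -0.81) and astrocyte markers for 1 of 9 (median -0.38). Early response genes were above 0 for 10 of 15 (median 0.15) and disease-associated microglia genes for 10 of 12 (median 0.07). At an unadjusted p under 0.05 by edgeR there were 3 of 8 border macrophage, 2 of 6 endothelial and 2 of 9 astrocyte markers. So were 3 of 15 early response and 2 of 12 disease-associated genes. None of these was called by edgeR, and their part in the values of the 10 genes was not tested.

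In double-positive libraries the picture was the same for the 10 genes, but not for the marker lists of other cells. P2ry12 ranged from 1788 to 2863 CPM (median 2138) in 9 burn libraries and from 1770 to 2542 CPM (median 2182) in 7 sham libraries. Csf1r ranged from 4299 to 8905 CPM (median 5228) after burn and from 4415 to 7003 CPM (median 5222) after sham, and the highest burn library was that of mouse 7. The log2FC of the 10 ran from -0.07 ± 0.09 (SE) for Selplg to 0.06 ± 0.13 for P2ry13, with a median of 0.01, and the 95% intervals lay between 0.823-fold and 1.26-fold. Batch 1 held 3 of the 9 burn libraries and no kept sham library, so with batch as a term these 3 do not inform the burn effect. Astrocyte markers were above 0 for 9 of 9 (median 0.32) and oligodendrocyte precursor markers for 5 of 5 (median 0.66). Border macrophage markers were above 0 for 6 of 8 (median 0.09), endothelial markers for 2 of 6 (median -0.06) and neuron markers for 0 of 9 (median -0.34). None of these was called by edgeR, and their part in the values of the 10 genes was not tested. The difference between the burn effects of these 2 populations was itself tested in a fit with 1 batch term for both, so its values are not the differences of the values above. It ran from -0.12 ± 0.14 for Csf1r to 0.01 ± 0.10 for Siglech (log2 scale, CD11b-positive effect minus double-positive effect), and 0 of 10 were called by edgeR, as were 0.0% of all 28752 genes, with 0 of the 10 and 2307 of all genes at an unadjusted p under 0.05. In that fit endothelial markers were above 0 for 0 of 6 (median -2.44), with 5 at an unadjusted p under 0.05. Astrocyte markers were above 0 for 0 of 9 (median -1.25, 6 under 0.05), monocyte and neutrophil markers for 1 of 7 (median -3.93, 3 under 0.05). Border macrophage markers were above 0 for 7 of 8 (median 0.35) and early response genes for 15 of 15 (median 0.19). The part of these lists was not tested.

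In CaMKII-positive libraries, where the 10 genes summed to 844 CPM, burn means were higher for all 10, but the libraries were few and spread widely. Fcrls stood at 45.7, 65.9, 65.4 and 50.6 CPM in the burn libraries of mice 2, 20, 22 and 24, and ranged from 20.3 to 54.0 CPM (median 28.6) in 6 sham libraries. Only the sham library of mouse 15, at 54.0 CPM, reached into the burn range. The log2FC of Fcrls was 0.87 ± 0.23 (SE, 4 against 6 libraries; unadjusted p = 0.0023, adjusted p = 1.0 by edgeR), the third lowest p of 28107 genes.

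Siglech stood at 28.1, 59.0, 49.8 and 44.0 CPM in the same burn libraries and ranged from 13.2 to 54.6 CPM (median 26.5) in sham libraries, with a log2FC of 0.72 ± 0.30 (unadjusted p = 0.031, adjusted p = 1.0 by edgeR). These 2 genes were the ones at an unadjusted p under 0.05, a mark that 2.99% of all genes passed with burn higher. Cx3cr1 stood at 118, 311, 165 and 179 CPM after burn and ranged from 47.4 to 210 CPM (median 106) after sham, with a log2FC of 0.72 ± 0.34 (adjusted p = 1.0 by edgeR). P2ry12 stood at 61.0, 122, 86.9 and 71.5 CPM after burn and ranged from 28.9 to 120 CPM (median 61.8) after sham, with a log2FC of 0.36 ± 0.33, the smallest of the 10.

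The log2FC of all 10 lay above 0 in this population, against 51.8% of all genes, and their median was 0.62 against 0.02. The 10 genes were read in the same 10 libraries, so their common sign is not 10 separate observations. The burn library of mouse 3, which was left out, went the other way: its summed level was 308 CPM, below the lowest sham library (321 CPM), and 6 of the 10 genes lay below every sham library. With all deposited libraries in the fit the median log2FC was 0.52, and that of Fcrls was 0.77 (adjusted p = 0.96 by edgeR). The burn library of mouse 20 had the highest summed level, at 1634 CPM, and the sham libraries of mice 15 and 19, at 1253 and 1080 CPM, exceeded the other 3 burn libraries. Other myeloid genes leaned the same way: the log2FC was above 0 for 21 of 24 other homeostatic microglia genes with a median of 0.51, for 6 of 8 border macrophage markers with a median of 1.05 and for 6 of 7 monocyte and neutrophil markers with a median of 0.82, and 0 were called by edgeR. Lists of other cells lay to either side of 0. The log2FC was above 0 for 8 of 9 astrocyte markers (median 0.21), 5 of 5 oligodendrocyte precursor markers (median 0.63), 4 of 4 red blood cell markers tested (median 6.47) and 13 of 15 early response genes (median 0.16). It was above 0 for 2 of 9 neuronal (median -0.18), 0 of 6 oligodendrocyte (median -0.41), 1 of 6 endothelial (median -0.14) and 0 of 5 mural cell markers (median -0.47), and none of these was called either. Tyrobp differed by 1.12 ± 0.44 (unadjusted p = 0.025, adjusted p = 1.0 by edgeR), and the part of the amount of RNA from other cells in all these values was not tested.

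In ACSA2-positive libraries, where the levels were lowest, the log2FC ran from -0.34 ± 0.50 (SE, 9 against 8 libraries) for Fcrls to 0.90 ± 0.79 for Siglech, with 5 above 0 and 5 below. The plain means, which take no account of batch, were lower after burn for 8 of 10, with burn over sham from 0.581 for Cx3cr1 to 1.17 for P2ry13. P2ry12 ranged from 4.56 to 16.8 CPM (median 10.0) after burn and from 7.14 to 17.0 CPM (median 13.1) after sham, with a log2FC of -0.30 ± 0.21 (adjusted p = 0.67 by edgeR). The 95% interval ran from 0.593-fold to 1.11-fold for P2ry12 and from 0.576-fold to 6.07-fold for Siglech. Endothelial markers were above 0 for 6 of 6 (median 0.59), at a summed 824 CPM after burn against 500.1 CPM after sham, and 0 were called by edgeR, with 6 at an unadjusted p under 0.05. Border macrophage markers were above 0 for 5 of 6 tested (median 2.07, 2 at an unadjusted p under 0.05), at a summed 1.13 against 0.725 CPM. Neuron markers were above 0 for 7 of 9 (median 0.54), astrocyte markers for 3 of 9 (median -0.12) and oligodendrocyte precursor markers for 1 of 5 (median -0.23). None of these was called by edgeR, and the part of all these lists in the values of the 10 genes was not tested. In all 4 populations the burn and sham ranges overlapped for all 10 genes, and the share of all genes with overlapping ranges was not counted.

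**Figure D4:**
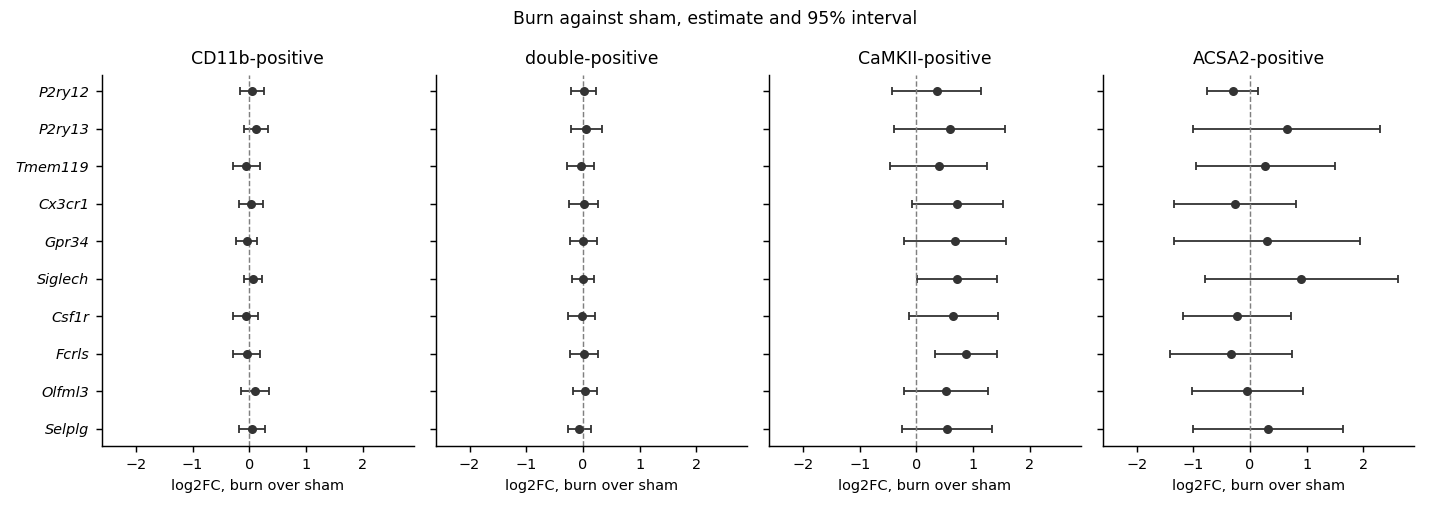
Log2FC of burn over sham for each of the 10 genes in the 4 populations, with 95% intervals from the edgeR fit. In CD11b-positive and double-positive libraries every estimate lies within 0.12 of 0, in CaMKII-positive libraries all 10 estimates lie between 0.36 and 0.87, and in ACSA2-positive libraries the intervals are the widest for all of the 10 but P2ry12.

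The ligands, adaptor and enzymes gave no call between burn and sham in any population by edgeR. At an unadjusted p under 0.05 there were 1 of 9 tested in CD11b-positive (Selp, 4.20 ± 1.65, which rests on a mean of 0.0547 CPM), 0 of 8 in double-positive, 2 of 10 in CaMKII-positive (Tyrobp, and Csf1 at -0.40 ± 0.19) and 1 of 8 in ACSA2-positive libraries (Abhd12, -0.25 ± 0.10). In CD11b-positive libraries Cx3cl1 differed by -0.82 ± 0.47, Il34 by -0.63 ± 1.60 and Nt5e by -0.39 ± 1.10, all at low counts, and Csf1 by 0.07 ± 0.15, Tyrobp by 0.07 ± 0.08, Entpd1 by 0.01 ± 0.09, Abhd12 by 0.00 ± 0.08 and Abhd16a by -0.11 ± 0.09. In double-positive libraries Il34 (1.52 ± 1.20) and Nt5e (1.50 ± 1.19) rested on few counts, and Csf1 (0.22 ± 0.28), Cx3cl1 (0.04 ± 0.37), Tyrobp (-0.04 ± 0.07), Entpd1 (0.00 ± 0.07), Abhd16a (0.06 ± 0.08) and Abhd12 (0.01 ± 0.08) stood close to 0. In CaMKII-positive libraries Cx3cl1 differed by -0.14 ± 0.32, Il34 by 0.03 ± 0.41, Entpd1 by 0.05 ± 0.20, Abhd16a by 0.12 ± 0.15, Abhd12 by 0.18 ± 0.18, Nt5e by 0.76 ± 0.75, Selp by 2.12 ± 2.10 and Sele by 1.42 ± 1.98. In ACSA2-positive libraries Il34 differed by 0.78 ± 0.44, Csf1 by 0.05 ± 0.12, Cx3cl1 by -0.05 ± 0.14, Tyrobp by 0.34 ± 1.16, Entpd1 by 0.10 ± 0.14, Nt5e by 0.34 ± 0.72 and Abhd16a by -0.13 ± 0.09. Itgam differed by -0.06 ± 0.08, 0.13 ± 0.10, 0.20 ± 0.51 and 1.85 ± 1.41 in CD11b-positive, double-positive, CaMKII-positive and ACSA2-positive libraries.

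In CD11b-positive and double-positive libraries the 10 genes varied together. Over the 15 CD11b-positive libraries the Pearson correlation of log2 CPM was above 0 for all 45 pairs, with a median of 0.55, from 0.10 for P2ry12 with Tmem119 to 0.96 for Csf1r with Tmem119. Over all 15, Tmem119, Cx3cr1, Csf1r, Fcrls and Gpr34 were close to each other, and P2ry12, Olfml3 and Selplg to each other. Over the 16 double-positive libraries the median was 0.87, from 0.58 to 0.97. Over all pairs of genes with a mean of at least 10 CPM, the median was 0.0075 in CD11b-positive (8924 genes, 50.8% of pairs above 0) and 0.020 in double-positive libraries (9220 genes, 52.0% above 0). Within the 10 libraries of batch 3 the median was 0.77 (0.09 to 0.96) in CD11b-positive and 0.79 (0.36 to 0.95) in double-positive libraries, and P2ry12 with Tmem119 stood at 0.64 in the former, so the separation of these 2 genes seen over all CD11b-positive libraries was smaller inside 1 batch. Nor did the 2 groups stand apart there. Selplg with Fcrls stood at 0.17 over all 15 libraries and at 0.90 inside batch 3, Selplg with Csf1r at 0.33 and 0.91, and Olfml3 with Cx3cr1 at 0.54 and 0.96. The libraries share a normalisation to the same total, and these values are a description.

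Of 8914 other genes with a mean of at least 10 CPM in CD11b-positive libraries, those most like the mean log2 CPM of the 10 over these 15 libraries included Tnfrsf21 (r = 0.97), Vsir (0.96), Slc2a5 (0.96) and Hvcn1 (0.95). Vsir and Slc2a5 were among the 24 other homeostatic microglia genes, and Vsir stood at 2085 CPM.

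**Figure D5:**
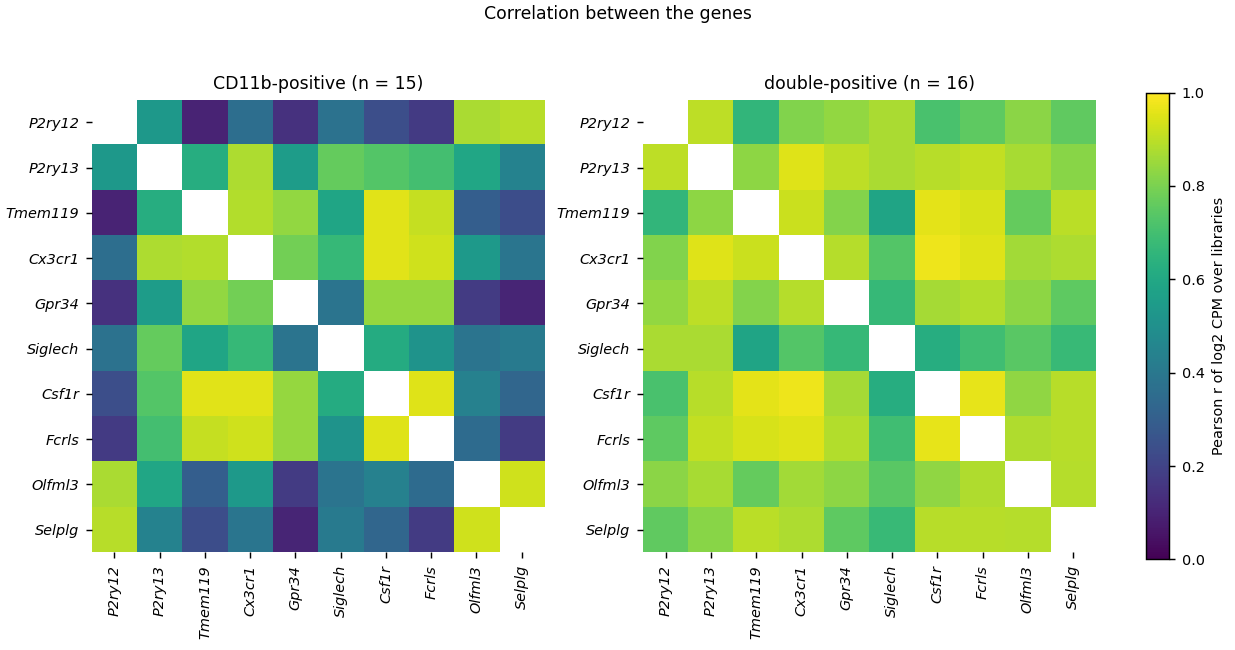
Pearson correlation of log2 CPM between the 10 genes over CD11b-positive libraries (n = 15) and double-positive libraries (n = 16), with the diagonal left blank. In CD11b-positive libraries the lowest value, 0.10, is that of P2ry12 with Tmem119, and in double-positive libraries all pairs are at 0.58 or above.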

How the data were processed

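RNA from sorted cortical cells of single mice had been sequenced as 150 base paired reads after ribosomal RNA depletion. The authors trimmed reads with fastp, aligned them with STAR to GRCm39 and deposited raw read counts per Ensembl gene for each population, with no normalisation. Per the labels, mm10 was also named as a build. The deposited tables of variance-stabilised values were not used. Each mouse was a replicate, and the same number marked the same mouse in every population.

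CPM was each count divided by the library's total over all 56980 genes, times 1000000. Libraries left out followed the study. Genes with at least 10 counts in total were tested with edgeR 4.0.16 (quasi-likelihood test, TMM scaling, R 4.3.3), with batch as a covariate within each population and batch and treatment between populations, and p-values were adjusted by Benjamini-Hochberg over all genes tested. Batches were taken from the study's supplementary sample sheet. Intervals (95%) used the log2FC, its SE and the residual degrees of freedom. DESeq2 1.42.0, other filters and scalings, a fit without batch, batch 3 alone, sham libraries alone, all deposited libraries, the replicate block and leaving out each mouse were alternatives. The scripts were tested on simulated counts with 200 changed genes. For CD11b-positive against double-positive libraries edgeR called 100% of them (28301 genes run, 4 false calls, median absolute log2FC 2.01). For burn against sham in CaMKII-positive libraries it called 100% (26957 genes, 8 false calls, median 2.03). For the difference of the burn effects it called 99% (28272 genes, 7 false calls, median 2.02). With the block it called 97.5% there (27961 genes, 4 false calls, median 2.03). Recovery at the smaller log2FC of the 10 genes in these comparisons was not tested. Deviations from group means were compared between CD11b-positive and double-positive libraries over 8791 genes: the median correlation was 0.22 within the same mouse (-0.24 to 0.44, 14 mice) and -0.03 between mice. It was 0.11 within the same mouse (9 mice) between double-positive and CaMKII-positive libraries and 0.08 (-0.22 to 0.37, 10 mice) between CaMKII-positive and ACSA2-positive libraries.

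The text names all 10 genes, Itgam, the 10 ligands and partners, at most 2 called genes of each other list (those furthest from 0) and the 5 genes most alike in level over CD11b-positive libraries, of which 1 is not reported here. The genes and lists were chosen with earlier results of these data known. The limit of 3 counts covers counting error only, and intervals rest on the spread between libraries. In fits that joined populations, the main fit took the libraries of 1 mouse as separate, and only the replicate block paired them. Promoters came from RefSeq (GRCm38.p6), exon lengths from a GRCm38 annotation, and gene coordinates on GRCm39 were not used here.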

Additional observations from a re-analysis of the deposited data

Results flagged for a closer look

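Within 80 groups of libraries (10 genes, 4 populations, 2 treatments), 7 single values stood apart by Dixon's test at the 95% level, which chance alone gives in about 1 of 20 groups. The sham CD11b-positive library of mouse 13, the only one of batch 2, held Siglech at 1139 CPM, the next library being at 962 CPM. The burn double-positive library of mouse 7 held Gpr34 at 1588 CPM, against 1081 CPM in the next, and this is 1 of the 2 mice in which none of the 10 genes was higher in the CD11b-positive library. The sham CaMKII-positive library of mouse 15 held Fcrls at 54.0 CPM, against 31.3 CPM in the next.

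The other 4 values came from ACSA2-positive libraries. The burn library of mouse 20 held P2ry12 at 16.8 CPM and Olfml3 at 6.77 CPM, against 10.7 and 3.84 CPM in the next, and the CaMKII-positive library of the same mouse had the highest summed level of its population. The sham library of mouse 16 held Gpr34 at 8.47 CPM and Fcrls at 8.13 CPM, against 3.26 and 3.68 CPM in the next.

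The libraries of mouse 3, a mouse of batch 1, entered only the alternatives that add them. The double-positive burn library of mouse 3 held Tmem119 at 1701 CPM and Fcrls at 1890 CPM, above the highest of 7 sham libraries (1612 and 1831 CPM). These were the 2 of 40 values of mouse 3 above every sham library of their population. Another 9 of the 40 lay below every sham library, 6 of them in the CaMKII-positive library, 2 in the CD11b-positive and 1 in the ACSA2-positive library. Batch 1 has no kept double-positive sham library, and 4 of the 9 kept burn libraries for Tmem119 and 1 of the 9 for Fcrls also stood above every sham library.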

How the results depend on the processing

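Every call of the 10 genes between double-positive, CaMKII-positive and ACSA2-positive libraries, and every absence of a call between burn and sham, stayed under all alternatives run. The comparison of CD11b-positive with double-positive libraries was less steady: 8 of 10 genes were called, 5 in sham mice alone, 0 with every deposited library, 0 when an absolute log2FC of at least 1 was also asked for, and 8 to 10 when 1 mouse was left out. With mouse as the replicate block 9 were called there, and the block changed no call of the 10 genes in the other comparisons. Adding the mouse 3 libraries while leaving out the double-positive library of mouse 8, an alternative chosen after seeing the data, gave 8. Directions changed only for values that were never called, and the cause was not tested. For burn against sham, batch 3 alone turned Fcrls in CD11b-positive libraries (0.045), P2ry12 (-0.028), Cx3cr1 (-0.051), Gpr34 (-0.030) and Siglech (-0.0055) in double-positive libraries, and Tmem119 (-0.44), Gpr34 (-0.10), Siglech (-0.048) and Selplg (-0.22) in ACSA2-positive libraries. A fit with no batch term turned P2ry12 (-0.026) and Selplg (-0.048) in CD11b-positive, Tmem119 (0.14) and Csf1r (0.11) in double-positive, and Tmem119 (-0.20), Gpr34 (-0.15) and Selplg (-0.21) in ACSA2-positive libraries. Every deposited library turned Tmem119 (0.42), Csf1r (0.44) and Selplg (0.39) in double-positive libraries, where scaling by library size (-0.0057) and the edgeR expression filter (-0.00078) turned Siglech. For the difference of the burn effects, batch 3 alone turned P2ry12 (0.12), P2ry13 (0.14), Tmem119 (0.067), Cx3cr1 (0.12), Csf1r (0.055), Fcrls (0.041), Olfml3 (0.16) and Selplg (0.23), and Siglech turned with every deposited library (-0.23) and with mouse 3 added (-0.011). Leaving out 1 mouse gave, for burn against sham in CD11b-positive libraries, -0.11 to 0.032 for Tmem119, -0.014 to 0.090 for Cx3cr1, -0.081 to 0.027 for Gpr34, -0.11 to 0.0075 for Csf1r, -0.11 to 0.041 for Fcrls and -0.016 to 0.14 for Selplg. In double-positive libraries it gave -0.035 to 0.072 for P2ry12, -0.0031 to 0.13 for P2ry13, -0.14 to 0.058 for Tmem119, -0.051 to 0.12 for Cx3cr1, -0.030 to 0.083 for Gpr34, -0.050 to 0.043 for Siglech, -0.095 to 0.070 for Csf1r and -0.016 to 0.11 for Fcrls. In ACSA2-positive libraries it gave -0.13 to 0.48 for Tmem119, -0.83 to 0.023 for Cx3cr1, -0.38 to 0.80 for Gpr34, -0.73 to 0.013 for Csf1r, -0.45 to 0.13 for Olfml3 and -0.27 to 0.55 for Selplg. In CaMKII-positive libraries no direction changed, and Fcrls ran from 0.78 to 1.06. Over all genes, burn against sham gave 0 calls in every population, but DESeq2 gave 80 in CD11b-positive, 2 in double-positive, 3 in CaMKII-positive and 27 in ACSA2-positive libraries, double-positive libraries gave 136 with every deposited library and 14 with no filter, and ACSA2-positive libraries gave 4 with no filter. Between CD11b-positive and double-positive libraries 5073 genes were called, against 2421 with every deposited library, 2935 in batch 3, 961 in sham mice and 2179 with the log2FC limit. In sham mice alone, 11931 against 18382 calls were made between double-positive and CaMKII-positive libraries and 4786 against 9181 between CaMKII-positive and ACSA2-positive libraries, the latter giving 4978 with the log2FC limit. The difference of the burn effects gave 0 calls, 3 with every deposited library and 2 with the replicate block. In ACSA2-positive libraries levels of a few CPM limit the precision.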
